A study of Homo sapiens with 36 samples.

Results

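The 8 genes described here carry copper into human cells, pump it out and hand it to its users in the cytosol: SLC31A1, SLC31A2, ATP7A, ATP7B, ATOX1, CCS, COMMD1 and SOD1. They were chosen by name, and every array probe annotated to them was taken, in both cell lines, at all times, with and without copper. Together they have 10 probes, since ATP7B and CCS have 2 each and the other genes 1. All 8 genes passed the filter on low signals and stand among 14678 genes tested, and all 10 probes stand among 19977 probes tested.

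Copper enters through SLC31A1 in the plasma membrane and is passed at once to small binding proteins, because free copper ions damage proteins and membranes. ATOX1 carries it to the pumps ATP7A and ATP7B, which load secreted enzymes in the Golgi and move outward to expel copper when there is too much of it, and CCS carries it to the superoxide dismutase SOD1. Much of this control is known to act on the proteins, through movement of the pumps and uptake of the importer from the surface, which an RNA measurement does not see.

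HCT116 is a human colorectal carcinoma line, and BEAS-2B is a line from human bronchial epithelium that was immortalized with a virus hybrid. HCT116 cells received copper(II) sulphate at 1400 µM and BEAS-2B cells at 800 µM, so line and dose cannot be told apart. RNA of both lines, grown in the medium DMEM, was measured on 36 Illumina bead arrays, 18 per line. Each line had 10 arrays of copper-treated cells, a pair per time at 2, 4, 6, 12 and 18 h. It also had 8 arrays of untreated cells, a pair at 0 h, another at 6 h and a single array at 2, 4, 12 and 18 h. No label ties the 2 arrays of a group to different cultures, so the spread behind each p-value is one between arrays and may be technical only.

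Late copper arrays detected fewer probes. The share was 36.9 to 40.9% per array at 2 to 6 h and 32.2 to 35.6% at 12 and 18 h in HCT116 cells with copper, against 39.6 to 42.4% in untreated HCT116 cells. In BEAS-2B the ranges were 40.5 to 42.8% and 36.2 to 37.9% with copper, against 41.4 to 43.2% without. The part of this shift in the results below was not tested, and in whole cultures fewer cells expressing a gene and less of its RNA per cell cannot be told apart. Of 8 colon epithelial markers, 5 were detected on all 8 untreated HCT116 arrays: CDX2, EPCAM, CDH1, KRT8 and KRT18. KRT20 was detected on 5 of 8, and CDX1 and VIL1 on 0 of 8. These arrays also detected the mesenchymal gene VIM on 8 of 8, COL1A1 on 5 of 8 and the leukocyte gene LYZ on 6 of 8. All 8 untreated BEAS-2B arrays detected the epithelial genes EPCAM, KRT8 and KRT18 and also the mesenchymal genes VIM, CDH2, FN1 and COL1A1, the monocyte gene CD14 and the endothelial gene VWF. On 0 of 8 were the basal airway keratins KRT5 and KRT14 or the epithelial cadherin CDH1 detected. EPCAM averaged a low log2 signal of 5.43 in BEAS-2B, against 13.05 in HCT116, and VWF averaged 5.57 in BEAS-2B.

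The promoters of the importer and of both pumps are shown because RNA of these genes changed with copper in the results that follow, and their windows differ in metal-linked and GC-rich motifs. The sequences are the 250 bases before a transcription start in RefSeq, on assembly GRCh38.p14, which gave entries for 6 of the 8 genes. Capitals mark GC boxes (GGGCGG) in SLC31A1 and the core of the metal response element (TGCACNC or TGCGCNC) in ATP7B, both searched on both strands. The ATP7A window holds neither motif and has no capitals. SLC31A1 lies at chr9:113221294-113221543 on the plus strand, ATP7A at chrX:77910443-77910692 on the plus strand, and the ATP7B window, before the second of 3 starts, at chr13:52012009-52012258 on the minus strand.
SLC31A1: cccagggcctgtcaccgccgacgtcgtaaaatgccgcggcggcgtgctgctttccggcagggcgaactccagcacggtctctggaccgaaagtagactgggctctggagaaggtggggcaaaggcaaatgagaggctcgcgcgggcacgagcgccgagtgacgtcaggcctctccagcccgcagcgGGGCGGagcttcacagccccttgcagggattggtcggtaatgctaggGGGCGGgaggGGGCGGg
ATP7A: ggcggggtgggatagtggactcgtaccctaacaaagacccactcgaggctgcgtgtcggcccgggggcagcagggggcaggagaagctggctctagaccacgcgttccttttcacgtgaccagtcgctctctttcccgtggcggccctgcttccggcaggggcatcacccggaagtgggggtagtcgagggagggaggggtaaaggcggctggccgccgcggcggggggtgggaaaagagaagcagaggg
ATP7B: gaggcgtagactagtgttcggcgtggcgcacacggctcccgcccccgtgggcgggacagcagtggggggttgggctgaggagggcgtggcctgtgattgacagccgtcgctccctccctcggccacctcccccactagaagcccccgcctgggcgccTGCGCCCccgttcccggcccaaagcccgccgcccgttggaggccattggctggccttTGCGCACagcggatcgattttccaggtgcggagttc

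The SLC31A1 window held 3 GC boxes, the motif bound by the factor SP1, and 0 metal response cores. In the ATP7B window before the second start there were 2 metal response cores, which MTF1, the factor that switches on metallothioneins, binds in many promoters, and 3 GC boxes. Of the 3 ATP7B windows it is the 1 with metal response cores: the first held 0 and 3 GC boxes, and the third 0 of either. Each of the ATOX1 and CCS windows held 2 overlapping metal response cores, 1 on each strand, and the windows before the first 2 of 3 COMMD1 starts held 1 each. Over all 34943 promoters of this length, 24.8% held a metal response core and 42.5% a GC box, so either motif is common. A match describes letters only and does not show that a factor binds there.

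The comparison of copper with untreated cells asks which of these genes copper changed in each line. In HCT116, 2 of the 8 genes rose (SLC31A1 and ATP7A), 3 fell (SLC31A2, ATP7B and COMMD1) and 3 did not pass the test, averaged over the 5 times, beside 46.5% of all genes called, 17.3% higher and 29.1% lower. In BEAS-2B, 2 rose (SLC31A1 and ATP7A), 4 fell (ATOX1, CCS, COMMD1 and SOD1) and 2 did not pass, beside 48.8% of all genes called, 18.5% higher and 30.3% lower. Calls were this common among all genes, so the counts describe the 8 genes and do not set them apart. Each value is a log2 difference, copper minus untreated at the same time, with its standard error. Each p is limma's, adjusted by Benjamini-Hochberg over all genes tested, with 0.05 as the threshold. ATP7B and CCS are counted by their brighter probes. The dimmer ATP7B probe rose in HCT116 (0.43, limma's adjusted p over all probes = 0.04), and the dimmer CCS probe did not pass in BEAS-2B (-0.25, 0.23). The median of the 8 genes was -0.17 in HCT116 and -0.23 in BEAS-2B, against -0.04 for all genes in each line.

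**Figure D1:**
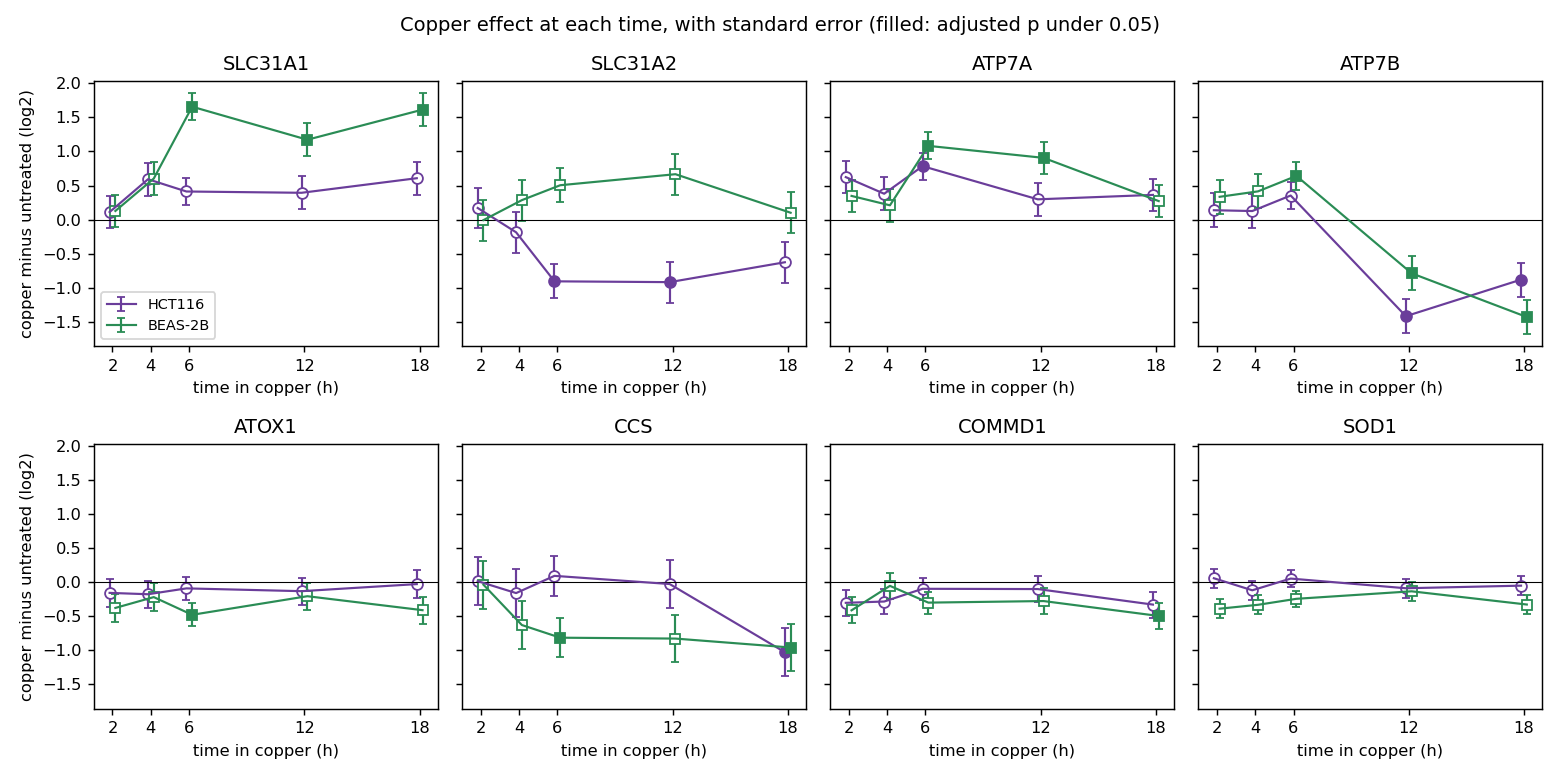
Log2 difference of copper minus untreated arrays at 2, 4, 6, 12 and 18 h for the 8 genes, with standard errors, in HCT116 (circles) and BEAS-2B (squares). Filled symbols passed limma's adjusted p of 0.05. SLC31A1 stood at 1.17 to 1.66 from 6 h on in BEAS-2B, and SLC31A2 was at or below -0.63 over the same times in HCT116. ATP7B by its brighter probe lay below 0 at 12 and 18 h in both lines. Its HCT116 value at 18 h rests on copper arrays that did not detect the probe.

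SLC31A1 and ATP7A rose in both lines and COMMD1 fell in both, while 10.6% of all genes rose in both and 20.3% fell in both. Of the 8, 0 were called in opposite directions, as 2.45% of all genes were. With all times together, 0 of the 8 had all 10 copper arrays above or below all 8 untreated ones, beside 2.16% of all genes above and 2.08% below in HCT116 and 4.42% and 6.98% in BEAS-2B. The 4 copper arrays of 12 and 18 h all lay below the 8 untreated ones for SLC31A2 and ATP7B in HCT116 (22.0% of all genes below, 12.8% above). In BEAS-2B they all lay above for SLC31A1 (15.0% of all genes) and below for COMMD1 (26.3%). At single times, no gene of the 8 was called at 2 h, when 0.920% of all genes were called in HCT116 and 2.67% in BEAS-2B. None was called at 4 h either, with 10.1% and 14.9% of all genes called. Against all 8 untreated arrays of the line, 4 were called at 2 h in BEAS-2B: ATP7A (0.51, adjusted p = 0.03), ATOX1 (-0.41, 0.043), COMMD1 (-0.43, 0.022) and SOD1 (-0.35, 0.015). At 4 h that setting called SLC31A1 in HCT116 (0.46, 0.038) and SLC31A1, ATOX1 (-0.37, 0.041) and SOD1 in BEAS-2B, and against the 0 h arrays SLC31A1 passed at 2 h in BEAS-2B (0.66, 0.049). The share of all genes called at single times with these references was not counted, so these calls cannot be set beside it. Unadjusted p was below 0.05 for ATP7A at 2 h and SLC31A1 at 4 h in HCT116, and for COMMD1 and SOD1 at 2 h and SLC31A1 and SOD1 at 4 h in BEAS-2B. At 6 h 2 genes were called in HCT116 and 5 in BEAS-2B, beside 30.8% and 31.1% of all genes. At 12 h the counts were 2 and 3, beside 34.9% and 36.8%, and at 18 h 2 and 4, beside 42.0% and 43.2%.

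**Figure D2:**
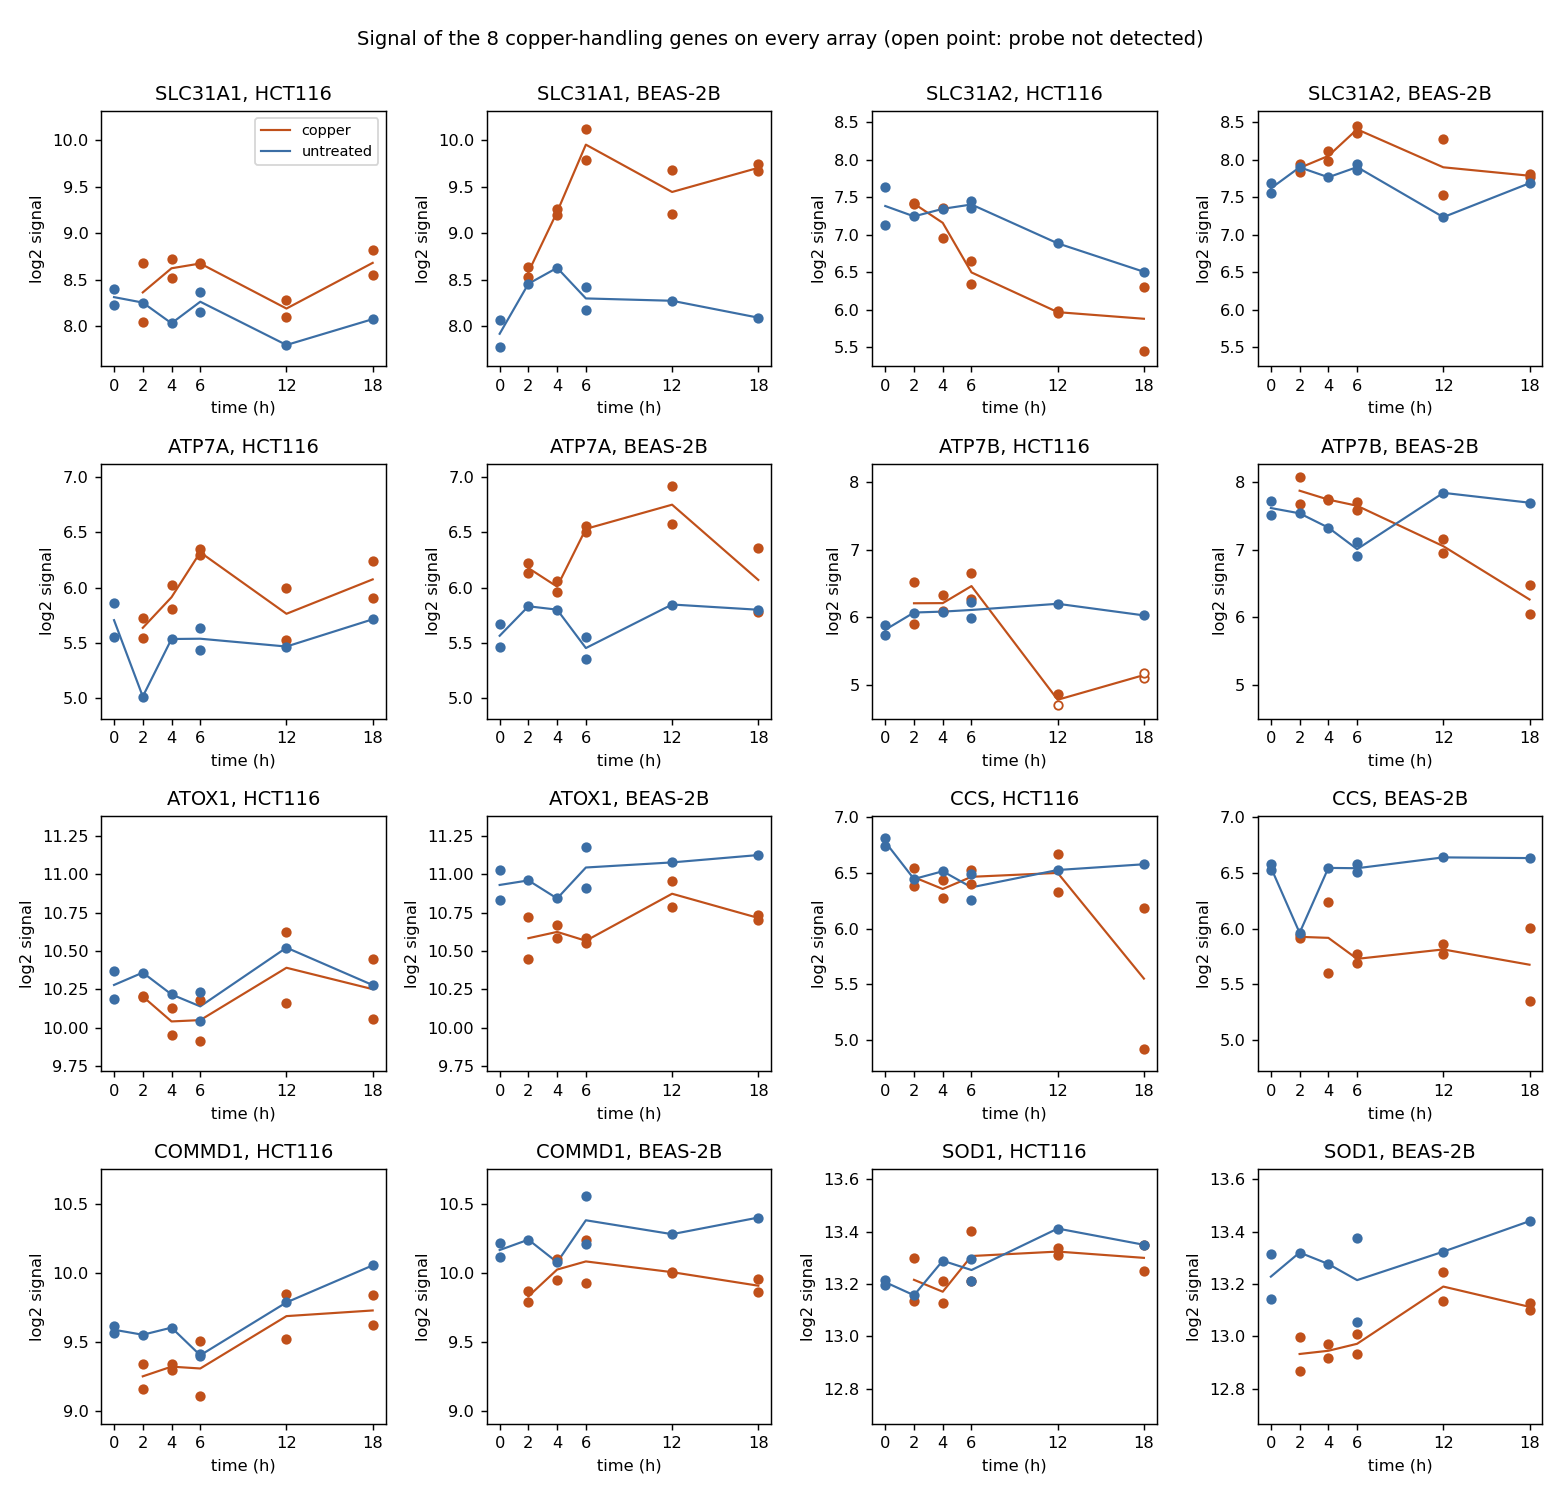
Log2 signal of each gene (brightest probe) on every array against time, with HCT116 left and BEAS-2B right in each pair of panels, copper in orange and untreated in blue. Lines join group means and open points mark arrays on which the probe was not detected; the copper arrays of SLC31A1 in BEAS-2B lie above the untreated ones from 4 h on, and ATP7B in HCT116 drops to 4.70 to 5.18 at 12 and 18 h.

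SLC31A1 (Entrez Gene 1317, chromosome 9), the high-affinity importer, rose in both lines, by 0.42 ± 0.10 (1.34-fold, adjusted p = 0.0024) in HCT116 and by 1.03 ± 0.10 (2.05-fold, adjusted p = 1.2e-07) in BEAS-2B. In HCT116 its log2 signal had a lowest value of 8.04, a median of 8.61 and a highest of 8.81 on copper arrays, against 7.80, 8.19 and 8.40 on untreated ones. In BEAS-2B the same values were 8.52, 9.46 and 10.12 with copper, against 7.77, 8.22 and 8.63 without. The copper and untreated ranges overlapped in both lines, in BEAS-2B by 1 copper array of 2 h. In BEAS-2B the rise passed the test from 6 h on. At 4 h the copper arrays read 9.20 and 9.26, against 8.63 on the untreated one, a difference of 0.60 ± 0.24 that did not pass (adjusted p = 0.11). It passed in the authors' quantile-normalized table (0.52, adjusted p = 0.042), against all 8 untreated arrays (1.00, 7.4e-05) and against the 0 h arrays (1.31, 7.8e-05). At 6 h they read 9.79 and 10.12, against 8.17 and 8.42, a rise of 1.66 ± 0.20 or 3.15-fold (adjusted p = 3.4e-06). All 4 BEAS-2B copper arrays of 12 and 18 h, at 9.21 to 9.74, lay above all 8 untreated arrays. The gene rose by 1.17 ± 0.24 at 12 h (adjusted p = 0.00075) and by 1.61 ± 0.24 at 18 h (adjusted p = 2.3e-05). In HCT116 the difference was between 0.11 and 0.61 at the 5 times and passed at none, with 0.61 ± 0.24 at 18 h (adjusted p = 0.052, and 0.0087 to 0.043 under 12 of the other settings and array sets tried). Against the untreated arrays of 0 h alone, the HCT116 average was 0.19 (adjusted p = 0.38).

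SLC31A2 (Entrez Gene 1318, chromosome 9), a relative of the importer found mainly in late endosomes and lysosomes, fell in HCT116 by 0.49 ± 0.13 (1.41-fold, adjusted p = 0.0039). In BEAS-2B its difference was 0.31 ± 0.13 and missed the threshold (adjusted p = 0.058, and 0.0098 to 0.046 under 11 of the other settings and array sets tried). On HCT116 copper arrays the lowest, median and highest values were 5.45, 6.50 and 7.42, against 6.51, 7.30 and 7.63 on untreated arrays. On BEAS-2B copper arrays they were 7.53, 7.97 and 8.45, against 7.24, 7.73 and 7.94. The groups overlapped in both lines, but all 4 HCT116 copper arrays of 12 and 18 h lay below all 8 untreated ones. In HCT116 at 2 h the copper arrays, at 7.41 and 7.42, still lay within the untreated range. At 6 h they read 6.65 and 6.35, against 7.46 and 7.35, a difference of -0.91 ± 0.25 (adjusted p = 0.0081), and at 12 h 5.96 and 5.98, against 6.89, a difference of -0.92 ± 0.30 (adjusted p = 0.023). At 18 h they differed from each other by 0.86, at 5.45 and 6.31, against 6.51, and the difference of -0.63 ± 0.30 did not pass (adjusted p = 0.11). The 6 h call was lost without copper replicate 2 (-0.76, adjusted p = 0.081) or untreated replicate 1 (-0.86, 0.055) of that time, the 12 h call without copper replicate 1 (-0.91, 0.061) or 2 (-0.93, 0.055), and the average without the 6 h arrays (-0.39, 0.08).

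Late untreated HCT116 arrays also had less SLC31A2 signal. Their arrays of 12 and 18 h read 6.89 and 6.51, against 7.14 to 7.63 on the 6 arrays of 0 to 6 h, a difference of -0.65 ± 0.20 (adjusted p = 0.038). SLC31A2 was the 1 gene of the 8 called over that step in untreated HCT116 cells, beside 15.2% of all genes, with COMMD1 at 0.38 ± 0.13 (adjusted p = 0.052, and 0.017 to 0.048 under 15 of the other settings and array sets tried). In untreated BEAS-2B cells limma called 0 of the 8, beside 3.37% of all genes, with an unadjusted p below the threshold for ATP7B (0.40 ± 0.17, adjusted p = 0.26). The step in SLC31A2 lost its call without untreated replicate 2 of 0 h (-0.59, adjusted p = 0.064) or untreated replicate 1 of 6 h (-0.64, 0.059), and, in an alternative chosen after seeing the data, without the 18 h arrays (-0.46, 0.23). Set against the untreated arrays of 0 h in place of the same time, SLC31A2 in HCT116 cells with copper differed by -1.51 at 18 h (adjusted p = 4.9e-05).

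ATP7A (Entrez Gene 538, chromosome X), the pump of most tissues and the gene mutated in Menkes disease, rose in both lines. The rise was 0.49 ± 0.10 (1.40-fold, adjusted p = 0.00063) in HCT116 and 0.56 ± 0.10 (1.48-fold, adjusted p = 0.00015) in BEAS-2B. The difference between the lines was -0.07 ± 0.15, with a 95% interval of -0.38 to 0.23. HCT116 copper arrays had a lowest value of 5.53, a median of 5.95 and a highest of 6.35, against 5.01, 5.54 and 5.86 on untreated arrays. BEAS-2B copper arrays had 5.78, 6.29 and 6.93, against 5.35, 5.73 and 5.85. The ranges overlapped in both lines, in BEAS-2B by 1 copper array of 18 h. The clearest separation was at 6 h, the time with 2 untreated arrays. In HCT116 the copper arrays of 6 h read 6.35 and 6.29, against 5.44 and 5.64, a rise of 0.78 ± 0.20 (adjusted p = 0.0045), which was 0.68 without untreated replicate 1 (adjusted p = 0.051). In BEAS-2B they read 6.51 and 6.56, against 5.35 and 5.55, a rise of 1.08 ± 0.20 (adjusted p = 3e-04). The BEAS-2B rise was 0.91 ± 0.24 at 12 h (adjusted p = 0.0055), with arrays at 6.93 and 6.58, against 5.85. At 18 h neither line passed, with 0.36 ± 0.24 in HCT116 and 0.27 ± 0.24 in BEAS-2B (-0.02 to 0.56 over fits that each left out 1 array). Against all 8 untreated arrays both did, at 0.55 in HCT116 (adjusted p = 0.0055) and 0.41 in BEAS-2B (0.033), and against the 0 h arrays BEAS-2B did (0.51, 0.04). Against the 0 h arrays alone the HCT116 average was 0.24 (adjusted p = 0.27).

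ATP7B (Entrez Gene 540, chromosome 13), the pump known from liver and mutated in Wilson disease, fell at late times in both lines by its brighter probe, ILMN_1722056, but not by its dimmer probe. By the brighter probe the lowest, median and highest values in HCT116 were 4.70, 5.99 and 6.66 with copper, against 5.74, 6.05 and 6.23 without. In BEAS-2B they were 6.05, 7.63 and 8.07 with copper, against 6.91, 7.52 and 7.84 without. The copper arrays thus spread to both sides of the untreated ones, and time in copper separates them. In HCT116 the 4 copper arrays of 12 and 18 h read 4.70, 4.86, 5.11 and 5.18, below all 8 untreated arrays, and 3 of these 4 did not detect the probe. The difference there was -1.42 ± 0.25 at 12 h (adjusted p = 0.00016), where 1 of 2 copper arrays detected it. At 18 h, where neither did, copper arrays averaged 5.15, against 6.03 on the untreated array, at least 1.84-fold lower (adjusted p = 0.0069).

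In BEAS-2B the probe was detected on all arrays. Averaged over the 5 times it had -0.17 ± 0.11 there (adjusted p = 0.22, 95% interval -0.39 to 0.06), and was called without the 2 h (-0.29, 0.02), 4 h (-0.31, 0.047) or 6 h arrays (-0.37, 0.03). It read 7.16 and 6.94 at 12 h, against 7.84, a difference of -0.79 ± 0.25 (adjusted p = 0.016, and 0.08 at -0.68 without copper replicate 2 of 12 h). At 18 h it read 6.05 and 6.47, against 7.69, a difference of -1.43 ± 0.25 or 2.70-fold (adjusted p = 1e-04). Before that it was higher in copper: the 6 h arrays read 7.71 and 7.59, against 6.91 and 7.11, a rise of 0.64 ± 0.20 (adjusted p = 0.02). The 2 untreated arrays of 6 h were the lowest of the 8, and the rise was 0.19 against all 8 untreated arrays (adjusted p = 0.4), 0.58 without copper replicate 1 (adjusted p = 0.11), 0.70 without copper replicate 2 (0.055) and 0.54 without untreated replicate 1 of 6 h (0.14). The late effect minus the early one (2 and 4 h) was -1.28 ± 0.25 in HCT116 (adjusted p = 5e-04), with 3 of 4 late copper arrays undetected, and -1.48 ± 0.25 in BEAS-2B (adjusted p = 0.00012). By this probe ATP7B was the 1 gene of the 8 called in this comparison in HCT116, beside 33.0% of all genes. Its dimmer probe went the other way in HCT116, at 0.84 ± 0.38 (95% interval 0.04 to 1.64), and did not pass (limma's adjusted p over all probes = 0.11). In BEAS-2B the dimmer probe had 0.12 ± 0.38 (0.87). SLC31A2 was near the threshold in HCT116, at -0.76 ± 0.30 (adjusted p = 0.06), and at -0.98 to -0.55 over fits that each left out 1 array. It was called with the strict filter (0.045), limma's moderation with a trend (0.039) and without the 18 h arrays (-0.91, 0.043). With all 8 untreated or the 0 h arrays as 1 reference for every time, the reference cancels in late minus early. What is left, -1.36 (limma's adjusted p = 2.5e-06), compares late with early copper arrays and includes any change with time in culture. ATP7B was, with SLC31A1 (1.03 ± 0.24, adjusted p = 0.0026), 1 of 2 called in BEAS-2B, beside 33.4%. Without the 18 h arrays the SLC31A1 value was 0.81 (adjusted p = 0.063).

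The dimmer ATP7B probe, ILMN_1696223, was detected on 26 of 36 arrays, the brighter one on 33. In HCT116 it read 5.37 and 6.28 at 12 h with copper, against 5.14, and 6.48 and 5.80 at 18 h, against 4.69 on an untreated array that did not detect it. It was at least 2.74-fold higher at 18 h (adjusted p over all probes = 0.0049, beside 37.9% of all probes called), where the brighter probe was lower. In BEAS-2B it read 5.84 and 6.24 at 18 h, against 5.48, a difference of 0.56 ± 0.38 that did not pass. Averaged over 5 times in HCT116 it rose by 0.43 ± 0.16 (adjusted p = 0.04), while the brighter probe fell by 0.34 ± 0.11 (adjusted p = 0.015), beside 42.5% of all probes called. The dimmer probe's call was lost in 7 of 28 fits that each left out 1 array (adjusted p up to 0.082): without HCT116 copper replicate 1 of 2, 4 or 18 h, replicate 2 of 12 h, either replicate of 6 h, or untreated replicate 1 of 6 h, at 0.34 to 0.44. With the mean of both probes the HCT116 average was 0.05 (adjusted p = 0.74) and the late minus early value -0.22 (adjusted p = 0.54), and in BEAS-2B the late minus early value was -0.68 (adjusted p = 0.031), with -0.31 at 12 h (0.36) and -0.43 at 18 h (0.15). The direction of the ATP7B signal in HCT116 thus differs between its probes. By the brighter probe the HCT116 average of -0.34 was lost without the 12 h arrays (-0.07, adjusted p = 0.72), without those of 18 h (-0.20, 0.19), in the authors' quantile-normalized table (-0.12, 0.11), with a normalization offset of 50 (-0.18, 0.061) and against the 0 h arrays (-0.05, 0.84).

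**Figure D3:**
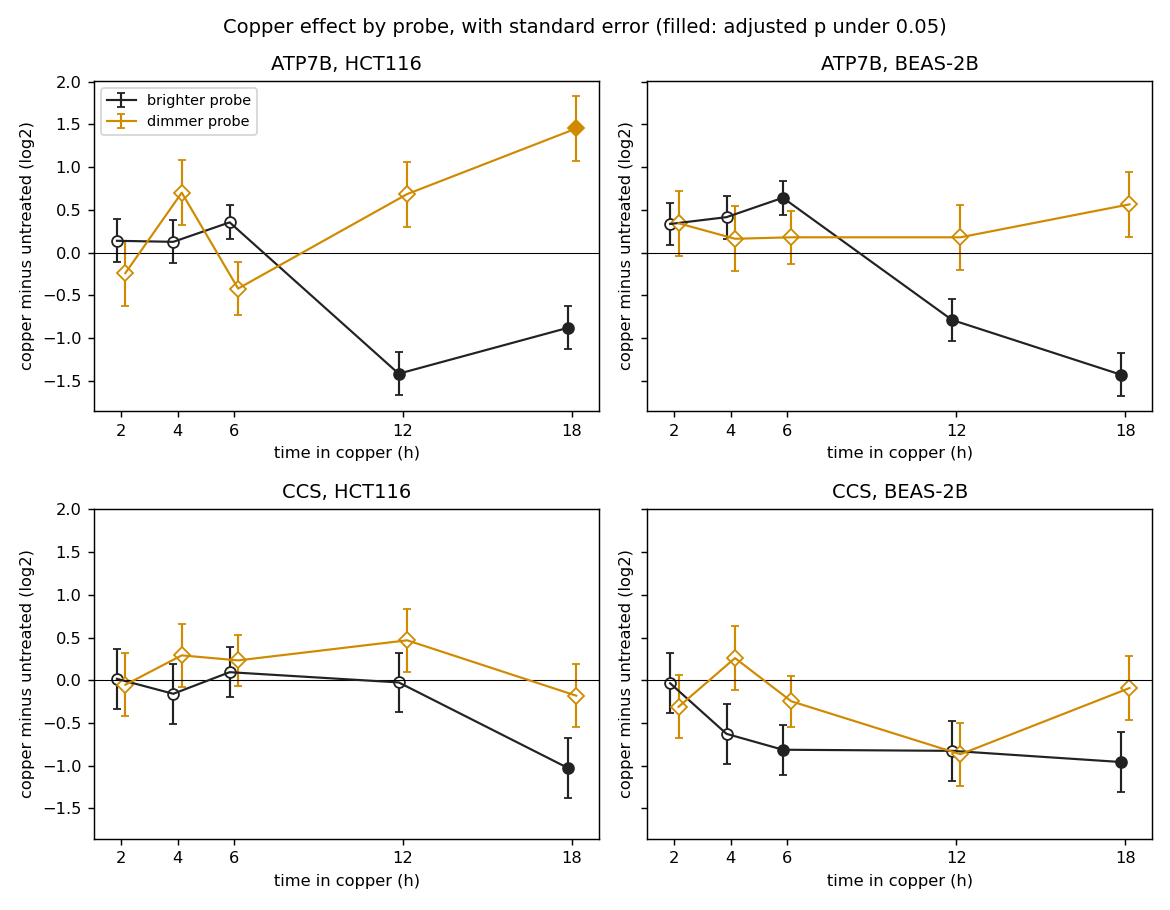
Log2 difference of copper minus untreated arrays by time for the brighter and dimmer probes of ATP7B (top) and CCS (bottom), with standard errors, in HCT116 (left) and BEAS-2B (right). Filled symbols passed limma's adjusted p of 0.05 over all probes; the ATP7B probes part after 6 h, at -0.88 and 1.45 at 18 h in HCT116, where the first has no detected copper array and the second no detected untreated array.

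Among the chaperones, ATOX1 (Entrez Gene 475, chromosome 5), which delivers copper to both pumps, had a difference of -0.12 ± 0.09 in HCT116, with a 95% interval of -0.30 to 0.07 (adjusted p = 0.32), and fell in BEAS-2B by 0.34 ± 0.09 (1.26-fold, adjusted p = 0.0036). HCT116 arrays had a lowest value of 9.92, a median of 10.17 and a highest of 10.62 with copper, against 10.05, 10.25 and 10.52 without. BEAS-2B arrays had 10.45, 10.68 and 10.96 with copper, against 10.83, 10.99 and 11.18 without. In BEAS-2B all but 1 copper array, of 12 h, lay below all untreated ones. The difference was called at 6 h alone in BEAS-2B (-0.48 ± 0.17, adjusted p = 0.037), and that call was lost without copper replicate 1 (-0.46, 0.13), copper replicate 2 (-0.49, 0.11) or untreated replicate 1 of 6 h (-0.34, 0.27). Against the 0 h arrays the BEAS-2B average was -0.26 (adjusted p = 0.13).

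CCS (Entrez Gene 9973, chromosome 11), which loads SOD1, had a difference of -0.22 ± 0.15 in HCT116 that did not pass (adjusted p = 0.27) and fell in BEAS-2B by 0.65 ± 0.15 (1.57-fold, adjusted p = 0.0015), by its brighter probe, ILMN_1766797. In HCT116 it had a lowest value of 4.92, a median of 6.39 and a highest of 6.67 with copper, against 6.26, 6.52 and 6.81 without. The HCT116 call at 18 h (-1.03 ± 0.35, adjusted p = 0.026) rested on 1 array. The 2 copper arrays of 18 h read 4.92 and 6.18, against 6.58, and differed by 1.26, the widest gap among the 14 replicate pairs for CCS. Without copper replicate 1 the value was -0.40 (adjusted p = 0.3), and without copper replicate 2 the HCT116 average was called at -0.35 (adjusted p = 0.014). The dimmer probe, ILMN_2290998, read 5.87 and 6.16 on those 2 arrays, against 6.19.

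On BEAS-2B copper arrays CCS had a lowest value of 5.35, a median of 5.82 and a highest of 6.24, against 5.96, 6.56 and 6.64 on untreated arrays. The low untreated value was the array of 2 h, at 5.96, and the other 7 read 6.51 to 6.64, above all 10 copper arrays. The dimmer probe gave -0.25 ± 0.16 in BEAS-2B (adjusted p = 0.23, beside 45.2% of all probes called), with copper arrays at 5.24 to 6.29, against 5.80 to 6.51. The mean of both probes fell by 0.45 (adjusted p = 0.0026). By the brighter probe the BEAS-2B fall was called at 6 h (-0.81 ± 0.29, adjusted p = 0.04) and 18 h (-0.96 ± 0.35, 0.036), and with the mean of both probes at neither time (-0.53, 0.074 and -0.53, 0.12) but at 12 h (-0.85, 0.017), where the brighter probe had -0.83 ± 0.35 (0.079). The 6 h call was lost without any 1 of its 4 arrays, at -0.86 to -0.77 and adjusted p of 0.1 to 0.15, and the 18 h call without copper replicate 1 of 18 h (-0.63, 0.23).

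COMMD1 (Entrez Gene 150684, chromosome 2), which binds ATP7B and takes part in returning the pumps from endosomes, fell in both lines. The difference was -0.22 ± 0.08 (1.17-fold, adjusted p = 0.034) in HCT116 and -0.31 ± 0.08 (1.24-fold, adjusted p = 0.0042) in BEAS-2B. HCT116 copper arrays had a lowest value of 9.11, a median of 9.43 and a highest of 9.85, against 9.40, 9.58 and 10.06 without copper. BEAS-2B copper arrays had 9.79, 9.95 and 10.24, against 10.08, 10.23 and 10.56. The groups overlapped in both lines, and the 4 BEAS-2B copper arrays of 12 and 18 h, at 9.86 to 10.01, lay below all 8 untreated arrays. Against the 0 h arrays neither average passed, at -0.13 in HCT116 (adjusted p = 0.47) and -0.20 in BEAS-2B (0.23), and against all 8 untreated arrays the HCT116 one was -0.16 (0.076). The HCT116 fall was also lost without the 2 h (-0.20, 0.094), 4 h (-0.21, 0.091) or 18 h arrays (-0.20, 0.11), and without copper replicate 1 of 2, 4 or 12 h (-0.20, 0.064; -0.22, 0.052; -0.19, 0.068) or replicate 2 of 6 or 18 h (-0.18, 0.071; -0.20, 0.061). At single times COMMD1 was called at 18 h in BEAS-2B (-0.50 ± 0.19, adjusted p = 0.043), and that call was lost in 14 of 28 fits that each left out 1 array, among them both BEAS-2B copper arrays of 18 h (-0.54, adjusted p = 0.066, and -0.45, 0.13).

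SOD1 (Entrez Gene 6647, chromosome 21), the abundant copper and zinc superoxide dismutase that CCS loads, had a difference of -0.03 ± 0.06 in HCT116, with a 95% interval of -0.16 to 0.10 (adjusted p = 0.75), and fell in BEAS-2B by 0.28 ± 0.06 (1.22-fold, adjusted p = 0.00076). HCT116 arrays had a lowest value of 13.13, a median of 13.27 and a highest of 13.40 with copper, against 13.16, 13.25 and 13.41 without, nearly the same range. BEAS-2B arrays had 12.87, 13.01 and 13.25 with copper, against 13.05, 13.32 and 13.44 without, and overlapped as well. SOD1 passed the test at no single time in either line, but other settings called it in BEAS-2B. Limma's moderation with a trend did so at 2, 4, 6 and 18 h (adjusted p = 0.048, 0.043, 0.044 and 0.019), all 8 untreated arrays as reference at 2, 4 and 6 h (0.015, 0.0092 and 0.013), and the authors' table (0.047) and the strict detection filter (0.048) at 18 h. Against the 0 h arrays the BEAS-2B average was -0.20 (adjusted p = 0.098).

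Whether copper acted differently in the 2 lines was tested as the HCT116 effect minus the BEAS-2B effect. Of the 8 genes 3 were called, beside 26.4% of all genes: both members of the SLC31 family and SOD1. SLC31A2 differed by -0.80 ± 0.18 (adjusted p = 0.0029), from an effect of -0.49 in HCT116 and 0.31 in BEAS-2B. SLC31A1 differed by -0.61 ± 0.15 (adjusted p = 0.0044), from rises of 0.42 and 1.03. For SOD1 the difference was 0.26 ± 0.09 (adjusted p = 0.038), from -0.03 and -0.28, and it was lost in 10 of 28 fits that each left out 1 array, at 0.22 to 0.25 and adjusted p of 0.053 to 0.06: HCT116 copper replicate 2 of 2 or 6 h or replicate 1 of 4 h, BEAS-2B copper replicate 1 of 2 or 6 h or replicate 2 of 4, 12 or 18 h, and untreated replicate 2 of 6 h of either line. Without the 6 h arrays none of the 3 passed, at -0.65 for SLC31A2 (adjusted p = 0.07), -0.45 for SLC31A1 (0.095) and 0.25 for SOD1 (0.086).

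At 6 h the lines differed by -1.25 ± 0.28 in SLC31A1 (adjusted p = 0.0062) and by -1.41 ± 0.35 in SLC31A2 (adjusted p = 0.012), 2 of 8 genes beside 11.7% of all genes. SLC31A2 also differed at 12 h, by -1.58 ± 0.42 (adjusted p = 0.016, 15.2% of all genes called), and SLC31A1 at 18 h, by -1.01 ± 0.34 (adjusted p = 0.043, 21.0% called). For SLC31A2 at 12 h the BEAS-2B effect was 0.67 ± 0.30 (adjusted p = 0.096), from copper arrays at 7.53 and 8.28 and 1 untreated array. That untreated array, at 7.24, was the lowest of the 8 untreated BEAS-2B arrays. At 2 and 4 h 0 of 8 genes differed, when 0.286% and 2.23% of all genes did, and unadjusted p was below 0.05 for SOD1 at 2 h. The intervals for genes that did not pass remain wide: -0.02 to 0.89 for CCS, -0.04 to 0.49 for ATOX1, -0.49 to 0.14 for ATP7B and -0.16 to 0.33 for COMMD1. The line difference in CCS was called without HCT116 copper replicate 1 of 18 h (0.56, adjusted p = 0.01). The change of the effect between early and late times was not called different between lines for any of the 8 (limma called 14.0% of all genes), at -0.88 ± 0.34 for SLC31A1 (adjusted p = 0.1) and -1.01 ± 0.42 for SLC31A2 (0.13), both with unadjusted p below 0.05.

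**Figure D4:**
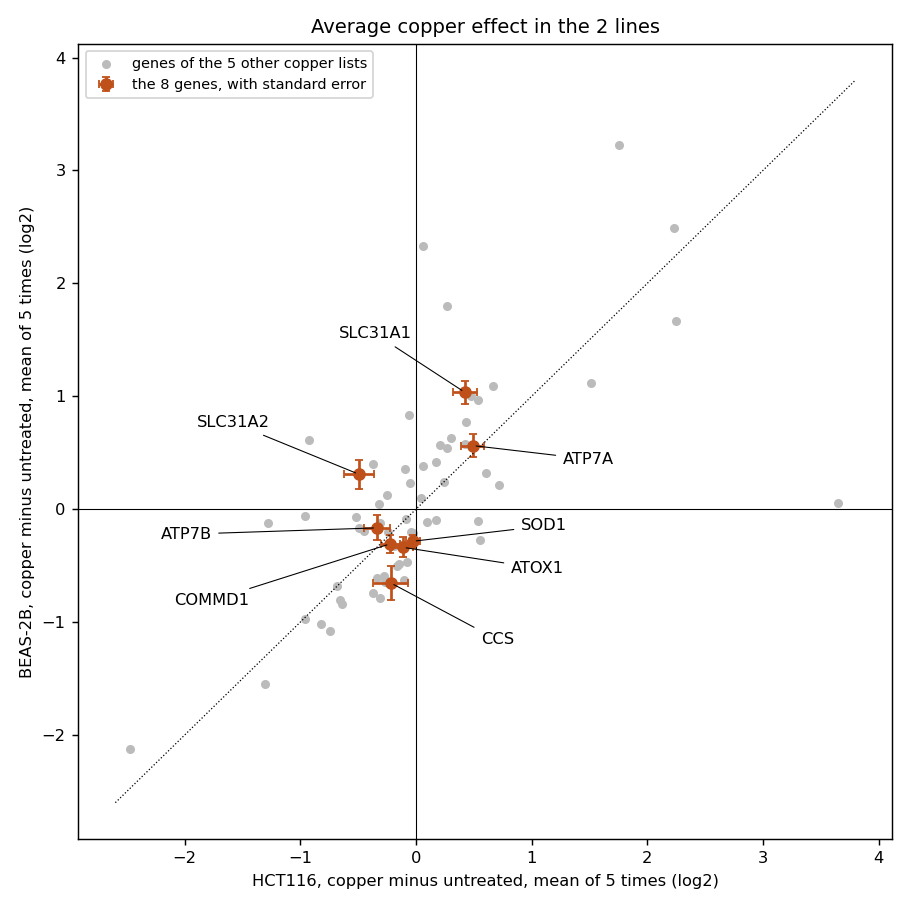
Average copper effect (log2, mean of 5 times) in HCT116 on the horizontal axis and in BEAS-2B on the vertical axis for the 8 genes (orange, with standard errors) and for the tested genes of 5 further copper lists (grey). The dotted line marks equal effects; SLC31A1 (0.42 and 1.03) and SLC31A2 (-0.49 and 0.31) stand above it, and the grey point at 3.65 is MT1B, which no BEAS-2B array of the comparison detected.

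Without copper, 4 of the 8 genes were lower in HCT116 than in BEAS-2B and the other 4 did not pass the test, beside 59.5% of all genes called. ATP7B by its brighter probe averaged 6.05 in HCT116 and 7.5 in BEAS-2B over 6 times, a difference of -1.45 ± 0.11 or 2.74-fold (adjusted p = 5.6e-10), and -0.77 with the mean of its probes (adjusted p = 1.5e-06). Its dimmer probe, detected on 5 of 8 arrays in HCT116 and 7 of 8 in BEAS-2B, averaged 5.00 in HCT116 and 5.09 in BEAS-2B, a difference of -0.10 ± 0.16 that did not pass (adjusted p over all probes = 0.66). ATOX1 averaged 10.30 in HCT116 and 11.00 in BEAS-2B, a difference of -0.70 ± 0.09 (adjusted p = 1.2e-06). COMMD1 averaged 9.67 in HCT116 and 10.26 in BEAS-2B, a difference of -0.59 ± 0.08 (adjusted p = 3.5e-06). The untreated arrays of ATP7B by its brighter probe, ATOX1 and COMMD1 did not overlap between the lines. The gap was smallest for COMMD1 (9.40 to 10.06 in HCT116 and 10.08 to 10.56 in BEAS-2B). How many of all genes lay apart in this way was not counted, so it does not set these genes apart. SLC31A2 averaged 7.13 in HCT116 and 7.69 in BEAS-2B, a difference of -0.56 ± 0.13 (adjusted p = 0.00097). The remaining differences were -0.22 for ATP7A (95% interval -0.44 to 0.00), -0.16 for SLC31A1 (-0.37 to 0.06), 0.06 for CCS (-0.26 to 0.38) and -0.02 for SOD1 (-0.15 to 0.11).

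Ordered over the 22 groups of line, treatment and time, group means spanned 3.09 for ATP7B, 2.53 for SLC31A2, 2.15 for SLC31A1 and 1.74 for ATP7A, and 0.51 for SOD1. Most neighbours in these orders did not differ beyond the spread within groups. Of 21 gaps between neighbours, 6 exceeded that SD for ATP7B (SD 0.21), 4 for SLC31A1 (0.20), 4 for SLC31A2 (0.26), 3 for ATP7A (0.20), 1 each for CCS (0.31) and SOD1 (0.10), and 0 for ATOX1 (0.16) and COMMD1 (0.15). That SD is one between single arrays, so a gap above it is no test of a difference between group means. For SLC31A1 the 3 highest groups were BEAS-2B with copper at 6, 18 and 12 h, at 9.95, 9.70 and 9.44, each followed by a gap above the SD. The lowest for SLC31A2 were HCT116 with copper at 12 and 18 h, at 5.97 and 5.88, with less than the SD between them and a gap of 0.53 to the 6 h group. ATP7B was lowest in HCT116 with copper at 18 and 12 h, at 5.15 and 4.78, where 0 of 2 and 1 of 2 arrays detected its probe. These levels are bounds, so their order, their gaps and the span of 3.09 are not exact.

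Across all 36 arrays, with each line centred on its untreated mean, SLC31A1 and ATP7A varied together (Pearson's r = 0.71), and SLC31A1 varied oppositely to CCS (-0.67) and ATOX1 (-0.62). ATOX1 and COMMD1 had an r of 0.67, while ATP7A and ATP7B had -0.05. These correlations share the arrays and their copper times and are descriptions. ATP7B is read here from its brighter probe alone, which was detected on 1 of the 4 HCT116 copper arrays of 12 and 18 h. The genes most like SLC31A1 were AGO2 (r = 0.934), CDC42SE1 (0.913) and RHOQ (0.913). For SLC31A2 they were DUSP3 (0.907), CAB39 (0.898) and DYRK2 (0.889), and for ATP7B GLG1 (0.886), SAMD9 (0.876) and DPY19L1 (0.875). The closest gene was ZNF281 for ATP7A (0.797), ATP5MG for ATOX1 (0.833), MPLKIP for CCS (0.853), RNASEH2A for COMMD1 (0.815) and TMEM183BP for SOD1 (0.792).

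Other genes of copper handling were counted from 5 lists, on the same average over 5 times. Among all genes 17.3% rose, 29.1% fell and 46.5% were called in either direction in HCT116, and 18.5%, 30.3% and 48.8% in BEAS-2B, with a median of -0.04 in each line. For metallothioneins, which bind copper and zinc in the cytosol, 6 of 9 tested rose and 0 fell in HCT116 (median 1.51), and 7 rose and 0 fell in BEAS-2B (median 1.67), where 17.3% and 18.5% of all genes rose. MT1X rose by 1.76 ± 0.07 in HCT116 and by 3.23 ± 0.07 in BEAS-2B, and MT1G by 2.23 ± 0.09 and 2.49 ± 0.09, both above the 1.03 of SLC31A1 in BEAS-2B. MT1F rose by 1.51 ± 0.06 in HCT116 and by 1.11 ± 0.06 in BEAS-2B. MT1B rose by 3.65 ± 0.08 in HCT116, and no BEAS-2B array of this comparison detected it. Members of this family are close in sequence, so their probes may share signal.

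Of 11 genes that deliver copper to cytochrome oxidase in mitochondria, 2 rose and 7 fell in each line (median -0.37 in HCT116 and -0.27 in BEAS-2B), beside 29.1% and 30.3% of all genes that fell. These were not all the same genes: COA6 and CHCHD7 were called in opposite directions in the lines, as 2.45% of all genes were. SCO2, which helps insert copper into the oxidase, fell by 2.48 ± 0.13 in HCT116 and by 2.13 ± 0.13 in BEAS-2B, and its relative SCO1 by 0.96 ± 0.05 and 0.97 ± 0.05. COX17, the copper donor to SCO1, fell by 0.15 ± 0.05 in HCT116 and by 0.48 ± 0.05 in BEAS-2B. COX19, an assembly factor of the same oxidase, rose by 0.66 ± 0.09 and 1.09 ± 0.09.

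Of 15 relatives and partners of COMMD1, 8 fell and 3 rose in HCT116 (median -0.24), and 10 fell and 2 rose in BEAS-2B (median -0.59), again beside 29.1% and 30.3% of all genes that fell. COMMD5 fell by 1.3 ± 0.12 in HCT116 and by 1.55 ± 0.12 in BEAS-2B, COMMD3 by 0.64 ± 0.07 and 0.84 ± 0.07, and DENND10 by 0.82 ± 0.07 and 1.02 ± 0.07. CCDC93, a subunit of the complex in which COMMD proteins act on endosomes, had -0.06 ± 0.06 in HCT116 (adjusted p = 0.44) and rose by 0.83 ± 0.06 in BEAS-2B.

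Of 9 tested copper and superoxide enzymes outside the cytosol, 1 rose, 1 fell and 7 did not pass in HCT116, and 2 rose, 1 fell and 6 did not pass in BEAS-2B (median -0.10 and 0.13), beside 46.5% and 48.8% of all genes called. SOD2, the mitochondrial manganese enzyme, rose by 0.21 ± 0.06 in HCT116 and by 0.57 ± 0.06 in BEAS-2B, where SOD1 fell by 0.28. PAM, a copper enzyme that amidates peptides, fell by 0.31 ± 0.07 in HCT116 and had -0.12 ± 0.07 in BEAS-2B (adjusted p = 0.14). The lysyl oxidase gene LOX was detected on no HCT116 array of the comparison and rose by 0.23 ± 0.07 in BEAS-2B. Its relative LOXL1 had -0.17 ± 0.11 in HCT116 (adjusted p = 0.25) and fell by 0.50 ± 0.11 in BEAS-2B.

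Of 17 tested metal reductases, other metal carriers and partners, 6 rose and 7 fell in HCT116, and 7 rose and 3 fell in BEAS-2B (median -0.04 and 0.22), beside 46.5% and 48.8% of all genes called. GLRX, a glutaredoxin known to act with the copper pumps, rose by 0.54 ± 0.06 in HCT116 and by 0.97 ± 0.06 in BEAS-2B. SP1, whose motif is the GC box printed above, fell by 0.65 ± 0.07 and 0.81 ± 0.07. PRNP, the prion protein, which binds copper at the cell surface, rose by 0.43 ± 0.06 and 0.77 ± 0.06. CUTC fell by 0.93 ± 0.09 in HCT116 and rose by 0.61 ± 0.09 in BEAS-2B.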

How the data were processed

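RNA was labelled as biotin-cRNA, per the labels' protocols, and hybridised to 36 Illumina arrays, 1 sample each. The authors' deposited table holds a log2 signal per probe and array, called non-normalized in its header and ranging over 5.89 to 14.49, with array means of 7.31 to 7.33, so scaling before deposit is possible. A detection p-value beside each deposited signal compares the probe with background, per the file headers. A second table deposited by the authors holds quantile-normalized log2 values of the same arrays, as the values show. The submitters' processing notes name BeadStudio, with no version.

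The log2 signals were converted to linear values, then background-corrected and normalized with neqc (offset 16) in limma 3.58.1. Of 43960 probes, 13 with missing values were left out, 29511 had 1 gene symbol, 14449 none and 0 several. Probes with a detection p below 0.01 on at least 2 arrays were kept. A gene was read from its probe with the highest mean. One limma fit (lmFit and eBayes) over 22 groups of line, treatment and time gave all contrasts, and p-values were two-sided and adjusted by Benjamini-Hochberg over 14678 genes or, for single probes, 19977 probes. At 4 of 5 times a line has 1 untreated array, whose spread is taken from the other groups, and the number of arrays limits the precision. Where a probe was detected on no array of a group, the fold is a bound against the lowest detected signal of each array or the probe's own signal, whichever was higher. Such a bound concerns the estimate and leaves out the spread between arrays. The fit was tested on simulated data with known changes.

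The genes, lists and tests were chosen with earlier results of these data known. The values of all 8 genes are given, and of each other list those of at most 4 called genes, the ones with the smallest adjusted p in either line. For likeness, the 3 genes with the highest r were taken, without placeholder symbols. Replicate numbers do not pair arrays: over 21 pairs of groups in each line, the deviations of same-numbered arrays had a median r of -0.00054 in HCT116 and 0.0018 in BEAS-2B. No pair of arrays held identical values.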

Additional observations from a re-analysis of the deposited data

Results flagged for a closer look

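The copper effect differed between HCT116 and BEAS-2B by the interaction test in 7 values, all of SLC31A1, SLC31A2 or SOD1, with limma's adjusted p over all genes and HCT116 minus BEAS-2B throughout. Averaged over the 5 times, SLC31A1 differed by -0.61 (adjusted p = 0.0044), SLC31A2 by -0.80 (0.0029) and SOD1 by 0.26 (0.038). At 6 h SLC31A1 differed by -1.25 (0.0062) and SLC31A2 by -1.41 (0.012). At 12 h SLC31A2 differed by -1.58 (0.016), and at 18 h SLC31A1 differed by -1.01 (0.043). A line had 1 untreated array at each of these times, and the BEAS-2B one of 12 h was the lowest of 8 for SLC31A2. The lines also received different copper doses, so line and dose cannot be told apart in any of these values.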

How the results depend on the processing

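Of 6384 values recomputed for the 8 genes and the second probes, 6163 kept their direction and side of the threshold, 108 lost a call, 111 gained one and 2 reversed. Both reversals came from averaging probes, for ATP7B in HCT116, at 0.05 on average (adjusted p = 0.74) and 0.28 at 18 h (0.38). That setting also called 0 of 8 genes in late minus early HCT116, against 1, and 3 of 40 single-time values, against 6. With all 8 untreated arrays as reference, HCT116 had 12 single-time calls, against 6, and BEAS-2B 22, against 12. With that reference or the 0 h arrays, late minus early called 3 genes in HCT116. These are 1 and the same contrast of late with early copper arrays, because the shared reference cancels. It includes any change with time in culture. In the alternative settings the calls among all genes were not counted for single times or late minus early. Those for the average of each line are not given here, so these counts cannot be set beside such shares. With the 0 h arrays alone, averages called 1 gene in HCT116, against 5, and 3 in BEAS-2B, against 6. Between lines, 2455 of all genes differed, against 3873. The strict filter and eBayes with trend each gave 2 late minus early calls in HCT116. Without the 18 h arrays HCT116 kept a count of 3 average calls and 2 late minus early calls, and BEAS-2B 1 late minus early call, against 2. Without the 6 h arrays 0 genes differed between lines, against 3.

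The untreated HCT116 step called 1 gene. It called 2 with the authors' table, the deposited signals quantile-normalized, offset 50, the strict filter or eBayes with trend, and 0 with a replicate block or, as chosen after seeing the data, without the 2, 4, 6 or 18 h arrays. The replicate block, whose numbers pair no arrays, ended 3 calls: COMMD1 in HCT116 on average (-0.22, adjusted p = 0.057) and in BEAS-2B at 18 h (-0.44, 0.086), and the SLC31A2 step (-0.63, 0.056). It added SLC31A1 in HCT116 at 18 h (0.70, 0.026). Leaving out 1 array at a time gave 4 to 5 average calls in HCT116 and 6 to 7 in BEAS-2B, 1 to 3 late minus early calls in HCT116 and 2 in BEAS-2B, 4 to 8 and 9 to 14 single-time calls, 2 to 4 line differences and 0 to 2 step calls. The causes were not tested. The brighter ATP7B probe was detected on 33 of 36 arrays, so its late HCT116 values are limited by signal over background.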
